A study of Mus musculus with 16 samples.

Results

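The 44 genes followed here encode the complement and coagulation factors that the liver makes for the blood, together with the inhibitors that restrain them. They were chosen by gene symbol from the 55450 genes in the count table, 21 as complement factors and 23 as coagulation and fibrinolysis factors. Bulk RNA was sequenced from primary hepatocytes, which are cells taken fresh from the liver of wild-type mice and kept in culture. Per the study's methods the mice were young adult C57BL/6J males. Cells of all groups were kept overnight in the same DMEM-based medium with fetal bovine serum and insulin-transferrin-selenium. They were left untreated, given 10 mM sodium itaconate, given a chemically defined lipid mixture diluted 10-fold (arachidonic, linoleic, myristic, oleic, palmitic and stearic acids with cholesterol), or given lipid and itaconate together. Each of the 4 groups had 4 libraries with the replicate letters A to D, and the labels do not say whether a letter is an animal or a culture, so that p values measure the spread between these libraries.

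Complement is a chain of serum proteases and binding proteins that marks surfaces with fragments of C3 and can end in a pore made of C5 to C9. Coagulation is a second chain of serum proteases, many of which depend on vitamin K, that ends when thrombin turns fibrinogen into fibrin, and plasmin later dissolves the clot. Hepatocytes are the main source of most of these proteins, and several, among them C3, factor B and the fibrinogen chains, are acute phase proteins whose synthesis changes in inflammation.

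Levels are given as CPM, the reads on a gene scaled to a library of common size after TMM normalization, with the mean ± SD over the 4 libraries of a group. Totals of expected counts ran from 22346049 to 35512004 per library. All 44 genes passed a filter on the mean CPM of the 16 libraries (1 or more) and were among the 11675 genes tested with edgeR's quasi-likelihood test, in which a gene was called at an adjusted p under 0.05. The hepatocyte marker *Alb*, serum albumin, stood at 35227 CPM in untreated cells, and of 6 platelet markers *Ppbp*, *Gp1ba*, *Gp9* and *Tubb1* were at 0 in every library, *Pf4* was at most at 0.181 CPM and *Itga2b* ran from 3.29 to 12.3 CPM. Lipid + itaconate replicate B differed most from its group. By chi-square per gene, where counting noise alone gives about 1, its distance from replicates A, C and D was 106 to 147, and the distances of all other pairs within a group were 10.0 to 64.5. Counts of called genes over a whole list that use the lipid + itaconate group are therefore also given without it, apart from those of alternative models. Counts within the steps and roles of the 44 genes are given with all libraries only.

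In untreated hepatocytes the order of the 44 genes per length of exon was led by the fibrin precursor and the central complement protein. *Fgb*, which encodes the beta chain of fibrinogen, had 1126 CPM per kb of exon, *C3* had 942, *Fgg* (the gamma chain) had 863 and *Fga* (the alpha chain) had 841, which put them between positions 51 and 64 among all genes tested. The ranges of *C3*, *Fgg* and *Fga* over the 4 libraries overlapped, so that their order was not separated beyond the spread. Next came *Cfb*, the factor B protease of the alternative pathway, at 482 CPM per kb and *Vtn*, the inhibitor of pore assembly, at 479. At the other end, *C1rl* (a relative of the C1r protease) and *Klkb1* (plasma prekallikrein) had 6.54 and 6.53 CPM per kb, and *Masp1*, a protease of the lectin pathway, had 4.95. *Masp1*, *Masp2*, *C8g* and *Serpind1* overlap genes on the other strand that were also expressed (*Rtp4*, *Tardbp*, *Fbxw5* and *Pi4ka*), and the sources used here do not say whether strand was used in counting, so that these levels are less certain. Of the *Klkb1* values 81.25% were not whole, and of those of *C1ra* 62.5%, since RSEM shared their reads with other genes. The shares were 37.5% for *C1s1* and *C2* and 31.25% for *Cfb*. A gene model on the same strand, *Gm45753*, overlaps *Klkb1* and had 0.95 CPM. These levels are less certain too. Together the 44 genes took 2.50 ± 0.121% of all counts in untreated cells.

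**Figure D1:**
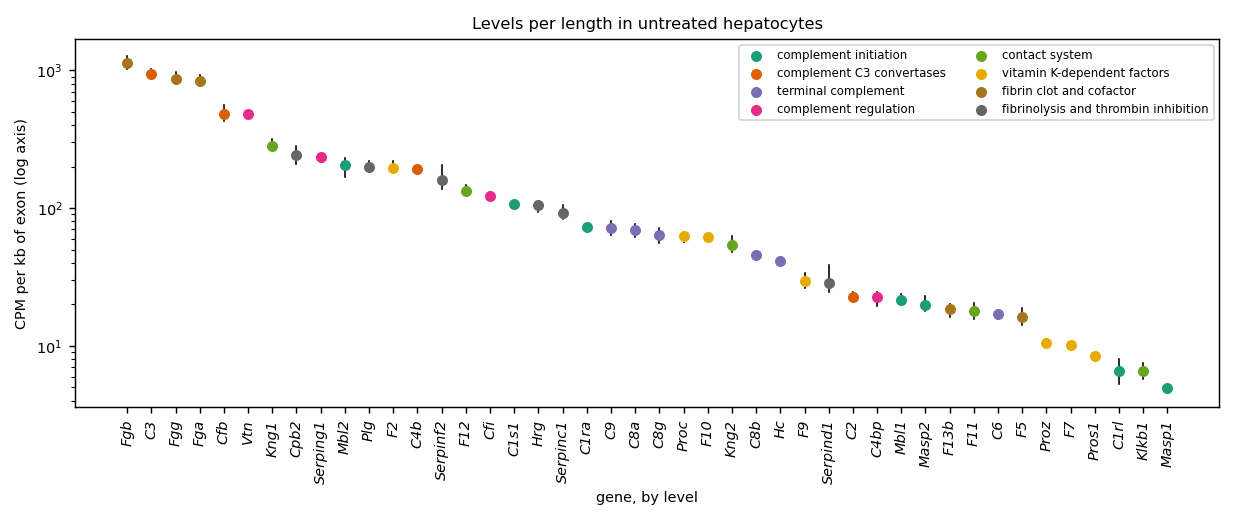
Level of each of the 44 genes in untreated hepatocytes, as CPM per kb of exon on a log axis, ordered by level and coloured by role, with points for the mean of 4 libraries and lines for their lowest and highest value. *Fgb* at 1126, *C3* at 942, *Fgg* at 863 and *Fga* at 841 CPM per kb stood above the rest, and *Masp1* at 4.95 was lowest.

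The promoters of these 4 highest genes are shown because 3 of them fell with lipid, as described further on. Each is the stretch of 150 bases before the start of transcription, taken from the RefSeq promoter table for GRCm38.p6, and ends where the gene begins in RefSeq or GENCODE, whichever lies further upstream. The stretch of *Fga* is at chr3:83025926-83026075 (plus strand), that of *Fgb* at chr3:83049864-83050013 (minus strand), that of *Fgg* at chr3:83007574-83007723 (plus strand) and that of *C3* at chr17:57228137-57228286 (minus strand). Capitals mark matches on either strand to 6 short motifs, which were CTGGGAA (the interleukin-6 response element of acute phase genes), TTCNNNGAA (STAT), TTGCNNAA (C/EBP), GTTAAT (HNF1), CAAAGTCCA (HNF4) and the NF-kB consensus.
Fga: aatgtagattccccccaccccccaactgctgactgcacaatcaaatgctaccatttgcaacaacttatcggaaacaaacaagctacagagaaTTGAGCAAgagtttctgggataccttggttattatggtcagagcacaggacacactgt
Fgb: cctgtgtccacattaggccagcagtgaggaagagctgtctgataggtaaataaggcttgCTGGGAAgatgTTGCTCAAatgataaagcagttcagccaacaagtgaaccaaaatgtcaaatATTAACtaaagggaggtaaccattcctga
Fgg: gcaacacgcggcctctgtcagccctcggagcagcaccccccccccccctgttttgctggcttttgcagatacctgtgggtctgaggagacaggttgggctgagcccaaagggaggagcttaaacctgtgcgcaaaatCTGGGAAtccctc
C3: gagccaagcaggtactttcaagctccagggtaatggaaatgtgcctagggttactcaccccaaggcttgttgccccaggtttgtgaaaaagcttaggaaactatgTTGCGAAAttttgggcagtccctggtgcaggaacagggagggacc
In *Fgb* the capitals are, from left to right, CTGGGAA 91 to 85 bases before the start, TTGCNNAA at 80 to 73 and GTTAAT, on the other strand, at 29 to 24. The capitals in *Fga* are TTGCNNAA on the other strand, 58 to 51 bases before the start, those in *Fgg* are CTGGGAA at 13 to 7, and those in *C3* are TTGCNNAA at 45 to 38.

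For the whole list, windows of 300 bases (250 before the start and 50 after it) were found for 35 of the 44 genes. TTGCNNAA was found on either strand in 14 of the 35 windows (40.0%), against 10.8% of 27025 promoters of all genes. GTTAAT was found in 11 (31.4%, against 7.2%), CTGGGAA in 8 (22.9%, against 11.1%) and TTCNNNGAA in 8 (22.9%, against 8.47%), and a sequence can hold both of the last motifs at once. No window held the NF-kB consensus or CAAAGTCCA, found in 1.43% and 0.477% of all promoters. A match is a run of letters and was not tested as a binding site. Of the 13 genes with a window that fell with lipid, 7 had a match to TTGCNNAA, beside 14 of all 35 genes. For GTTAAT these counts were 5 and 11, for TTCNNNGAA 4 and 8, and for CTGGGAA 3 and 8. Whether matches went with the fall was not tested. Where a gene had more than 1 window, the one nearest the GENCODE start was taken for the 44 genes. For all genes it was the first listed, so that the shares rest on unlike choices.

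The first comparison asks how lipid alone changed these genes. Of the 44 genes, 19 were lower and 4 were higher in lipid-treated than in untreated hepatocytes, and 21 did not pass the test. The share called, 52.3%, stands beside 47.5% of all genes tested in this comparison. By direction, 43.2% of the 44 genes were lower, beside 23.7% of all genes, and 9.09% were higher, beside 23.8%. The changes were small. The median log2 fold change was −0.12, beside 0.0047 over all genes tested, and *C1rl* was the only member of the list to change by 1.5-fold or more. In 11 of the 44 genes every lipid library was below every untreated library, beside 15.9% of all genes, and in 2 every lipid library was above, beside 16.6%. In 27 of them the lipid library was lower in each of the 4 letters, beside 29.4% of all genes. The share of all counts taken by the 44 genes was 2.27 ± 0.154% with lipid, and in each letter it was below that of the untreated library.

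The second comparison asks the same in the presence of itaconate. Of the 44 genes, 21 were lower and 3 were higher in lipid + itaconate-treated than in itaconate-treated hepatocytes, which is 54.5% of them, beside 47.0% of all genes tested (23.5% lower and 23.5% higher). The median log2 fold change was again −0.12, and 11 genes had every lipid + itaconate library below every itaconate library, beside 14.8% of all genes. In 22 the library with both was lower in each letter, beside 27.4%. Without lipid + itaconate replicate B the counts were 28 lower and 3 higher, which is 70.5% of the 44 genes, beside 45.3% of all genes called in that fit. Both comparisons called 19 of the 44 genes in 1 direction, 16 lower and 3 higher, which is 82.6% of the calls in the first and 79.2% of those in the second. Over all genes tested the same shares were 75.8% and 76.7%. Without lipid + itaconate replicate B 20 were shared, 17 lower and 3 higher, which is 87.0% and 64.5% of the calls, beside 72.0% and 75.5% over all genes. None of the 44 genes was called in opposite directions, beside 3 of the 11675 genes tested. Of the 44 genes, 16 were called in neither comparison (10 without that library), beside 4849 of all genes tested (4825 without that library).

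Markers of other cell types moved too, in comparisons that called 47.5% and 47.0% of all genes tested. Without lipid + itaconate replicate B the second called 45.3%. Of 9 macrophage markers tested, 5 were lower and 1 was higher with lipid alone, and 8 were lower and 1 was higher with lipid in the presence of itaconate, with or without lipid + itaconate replicate B. Their level was low, with *Adgre1* at 2.19 CPM in untreated and 1.20 in lipid-treated cells and *Marco* at 10.2 and 6.03, while *Cd68*, which encodes a lysosomal protein, rose from 196 to 262. The summed level of the macrophage list ran from 177 to 291 CPM in untreated, 232 to 328 in lipid-treated, 157 to 243 in itaconate-treated and 212 to 318 in lipid + itaconate-treated libraries, and most of it was *Cd68*. Of 5 endothelial markers tested, *Stab2* was lower with lipid alone (2.99 to 2.06 CPM, adjusted p = 0.0312) and in the second comparison (2.56 to 1.80 CPM, adjusted p = 0.0483), where no marker of this list was called without lipid + itaconate replicate B, and *Lyve1* was higher with lipid alone (1.05 to 1.59 CPM, adjusted p = 0.0380). The summed level of the 8 listed was 12.2 to 23.7 CPM over all libraries. Of 5 cholangiocyte markers *Sox9* alone passed the filter, and it went from 125 to 97.6 CPM with lipid alone (log2 fold change −0.37, SE 0.056, adjusted p = 7.18e-05) and from 126 to 97.7 CPM in the second comparison (−0.37, SE 0.055, adjusted p = 8.03e-05). *Krt19*, *Krt7*, *Epcam* and *Cftr* of that list reached at most 0.58 CPM in a library, and *Cftr* was at 0 in all. Of 7 stellate cell markers *Reln* alone passed the filter and was lower in the second comparison (22.2 to 19.0 CPM, adjusted p = 0.0411), a call that was lost without lipid + itaconate replicate B. The platelet marker *Itga2b* was called in neither. The part of these markers in the changes of the 44 genes was not tested. Of 7 hepatocyte markers, 2 were lower and 1 was higher with lipid alone, with *Alb* at 30921 CPM, and 3 were lower and 1 was higher in the second comparison (5 and 1 without lipid + itaconate replicate B). In bulk RNA, fewer cells of a type and less RNA per cell cannot be told apart.

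**Figure D2:**
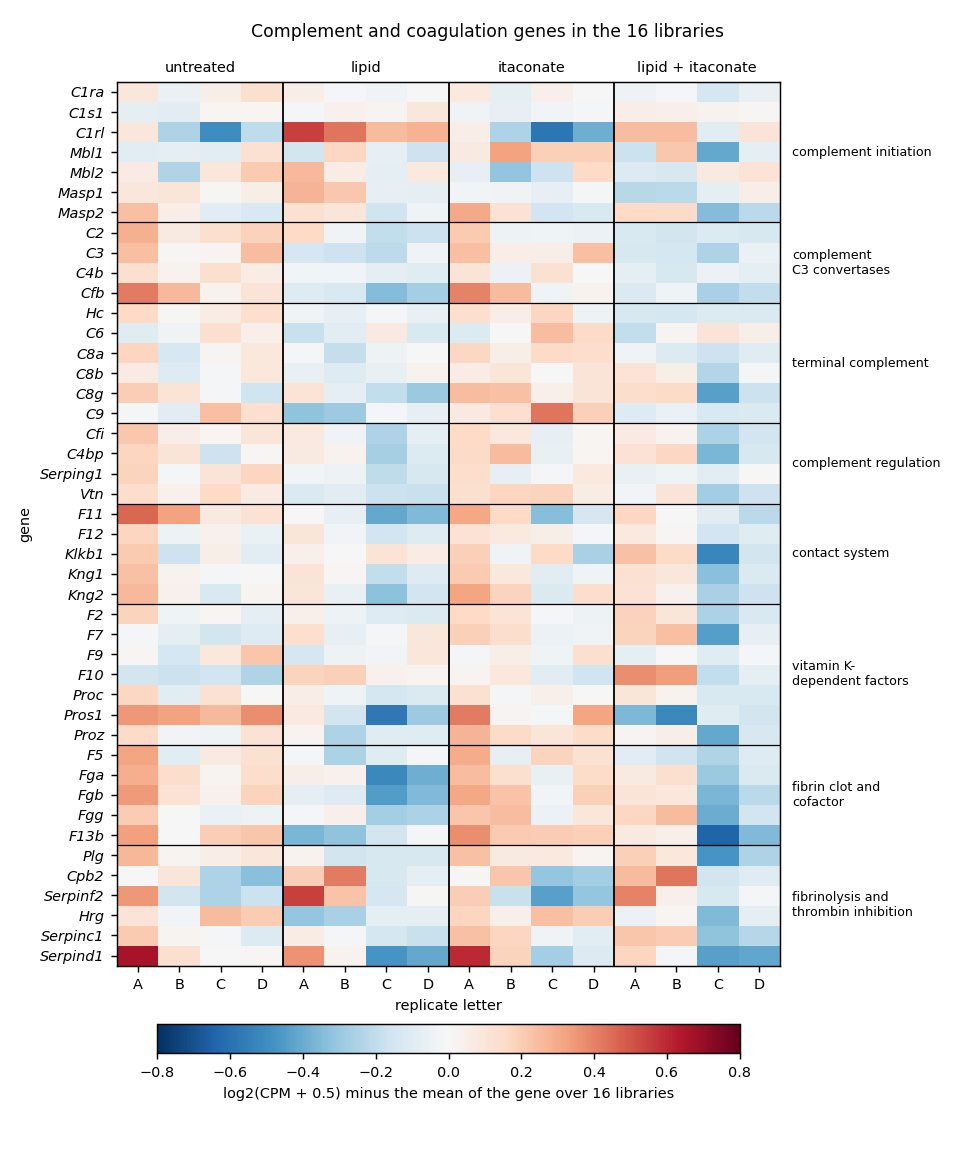
Level of the 44 genes in each of the 16 libraries, as log2(CPM + 0.5) minus the mean of the gene over the 16 libraries, with libraries in columns by group and replicate letter and genes in rows by role. Blue cells, below the mean, gather in the lipid and lipid + itaconate columns for the C3 convertase and fibrin clot genes, while *C1rl* is red in the 4 lipid columns.

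The complement cascade starts when recognition proteins switch on their proteases. Among the 7 genes of this step, *C1rl* rose and the other 6 did not pass the test with lipid alone. *C1rl* was at 24.2, 19.0, 15.9 and 19.6 CPM in untreated libraries A to D and at 33.4, 30.6, 27.2 and 27.6 CPM with lipid. Every lipid library lay above every untreated one, and the log2 fold change was 0.60 (SE 0.069, adjusted p = 5.23e-06). Among itaconate-treated libraries *C1rl* was at 23.6, 19.0, 15.0 and 17.2 CPM, and among lipid + itaconate libraries at 26.9, 27.0, 21.3 and 24.4 CPM. These groups overlapped, but each letter was higher with lipid (log2 fold change 0.42, SE 0.069, adjusted p = 0.000162). *C1ra* and *C1s1*, which encode the C1r and C1s proteases and lie beside *C1rl* on chromosome 6, had 216 ± 11.7 and 333 ± 13.3 CPM in untreated and 208 ± 5.66 and 348 ± 10.8 CPM in lipid-treated cells.

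*Mbl1*, which encodes mannose-binding lectin A, was called in the second comparison but not in the first. It was at 32.4, 32.8, 32.5 and 37.5 CPM in untreated libraries A to D and at 31.1, 38.7, 32.9 and 30.6 CPM with lipid, so that these groups overlapped. With itaconate it was at 36.3, 43.2, 39.3 and 39.4 CPM, and with both at 30.6, 40.0, 25.8 and 32.7 CPM. In each letter the library with both was lower than the one with itaconate, and *Mbl1* fell by 0.30 on the log2 scale (SE 0.082, adjusted p = 0.00715). *Mbl2* (mannose-binding lectin C), *Masp1* and *Masp2* (proteases bound to the lectins) were called in neither comparison, with *Mbl2* at 223 ± 28.5 CPM in untreated and 230.1 ± 22.5 CPM in lipid-treated cells.

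The 4 genes of the C3 convertases, the enzymes at the centre of complement that cut C3, and of C3 itself fell in both comparisons. *C3* was at 5205, 4440.5, 4485 and 5242 CPM in untreated libraries A to D and at 4019, 3929, 3819 and 4335 CPM with lipid. It was at 5208, 4589, 4565 and 5216 CPM with itaconate and at 4047, 4011, 3727 and 4251 CPM with both. All 8 libraries with lipid lay below all 8 without it. *C3* fell by 0.26 with lipid alone (log2 scale, SE 0.046, adjusted p = 0.000241) and by 0.29 with lipid in the presence of itaconate (SE 0.046, adjusted p = 0.000141). Its transcripts were 0.476 ± 0.0382% of all counts in untreated and 0.418 ± 0.0217% in lipid-treated cells.

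*Cfb* had 1568, 1410.2, 1202 and 1263 CPM in untreated libraries A to D and 1095, 1081, 925 and 976 CPM with lipid. With itaconate it had 1549.7, 1402, 1152 and 1201 CPM, and with both 1089, 1150.2, 984 and 1029 CPM. Again no library with lipid reached the lowest library of the matching group without lipid, and D and C were the lowest letters in each group. *Cfb* fell by 0.41 on the log2 scale with lipid alone (SE 0.049, adjusted p = 8.31e-06) and by 0.31 with lipid in the presence of itaconate (SE 0.049, adjusted p = 0.000132). *C2* and *C4b*, which encode the components of the convertase of the classical and lectin pathways, fell by 0.23 (SE 0.055, adjusted p = 0.00323) and 0.14 (SE 0.042, adjusted p = 0.0123) with lipid alone. *Cfb* and *C2* are neighbours on chromosome 17, 85 bases apart on the same strand, and a gene model that reads through both of them, *Gm20547*, had 0.38 CPM. Of the *C4b* values 93.75% were not whole, since RSEM shared its reads with other genes, so that its level is less certain. The call of *C4b* with lipid alone was lost without lipid replicate C (adjusted p = 0.0542) and with no filter on low genes (0.0513). In the second comparison those of *C2* and *C4b* were lost without itaconate replicate A or C or lipid + itaconate replicate A, and that of *C2* also without itaconate replicate D, with adjusted p up to 0.153 and 0.0941. Both were also lost with the 8 libraries of the comparison alone (adjusted p = 0.0585 and 0.0904), and that of *C4b* with no filter on low genes (0.0759).

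Of the 6 genes of the terminal pathway, which builds the pore, 2 fell with lipid alone and 4 fell with lipid in the presence of itaconate. *Hc*, which encodes C5, went from 259 ± 12.2 CPM in untreated to 236 ± 3.89 CPM in lipid-treated cells (log2 fold change −0.13, SE 0.044, adjusted p = 0.0198), and from 257 ± 16.6 to 223 ± 2.15 CPM in the second comparison (−0.21, SE 0.044, adjusted p = 0.00134). Its call with lipid alone was lost without lipid replicate A or without untreated replicate A or D (adjusted p up to 0.0867). It was also lost with no filter on low genes (0.0798). *C9*, the subunit that polymerises into the pore, fell by 0.24 (SE 0.060, adjusted p = 0.00356) and 0.30 (SE 0.060, adjusted p = 0.000776).

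*C8a*, which encodes the alpha chain of C8, was at 277, 225, 249 and 260.1 CPM in untreated libraries A to D and at 243, 215, 239 and 245 CPM with lipid. It was at 276, 253, 273 and 271 CPM with itaconate and at 241, 228, 219 and 229 CPM with both. The first pair of groups overlapped and the second did not, and the log2 fold changes were −0.10 (SE 0.043, adjusted p = 0.0639) and −0.23 (SE 0.043, adjusted p = 0.000564). The first of these passed the test without untreated replicate B (adjusted p = 0.0305). With all libraries kept it passed in DESeq2 (adjusted p = 0.0384) and in edgeR with RLE normalization (0.0494), and in no other alternative. *C8g* (the gamma chain) fell by 0.23 in the second comparison (SE 0.066, adjusted p = 0.00908). *C6* and *C8b* (the beta chain of C8), the latter a neighbour of *C8a* on chromosome 4, were called in neither.

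Among the 4 regulators of complement, *Cfi* (factor I, which cuts C3b), *Serping1* (the C1 inhibitor) and *Vtn* fell with lipid alone. *Vtn* went from 972 ± 39.4 to 823 ± 24.4 CPM (log2 fold change −0.24, SE 0.061, adjusted p = 0.00424) and *Serping1* from 545 ± 33.0 to 471 ± 27.2 CPM (−0.21, SE 0.049, adjusted p = 0.00267). In the second comparison *Cfi*, *Vtn* and *C4bp*, which encodes the cofactor that unwinds the classical convertase, fell, and *Serping1* was called in the first comparison alone. The calls of *Cfi* and *C4bp* there were lost without itaconate replicate C or without lipid + itaconate replicate C or D. That of *Cfi* was also lost with no filter on low genes (adjusted p = 0.0795). That of *C4bp* was also lost with the 8 libraries of the comparison alone (adjusted p = 0.05002). Whether the change of *Serping1* differed between the comparisons is tested by the interaction of lipid and itaconate. It did not call *Serping1* (0.13 on the log2 scale, SE 0.070, adjusted p = 0.624), which does not show that the changes were equal.

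**Figure D3:**
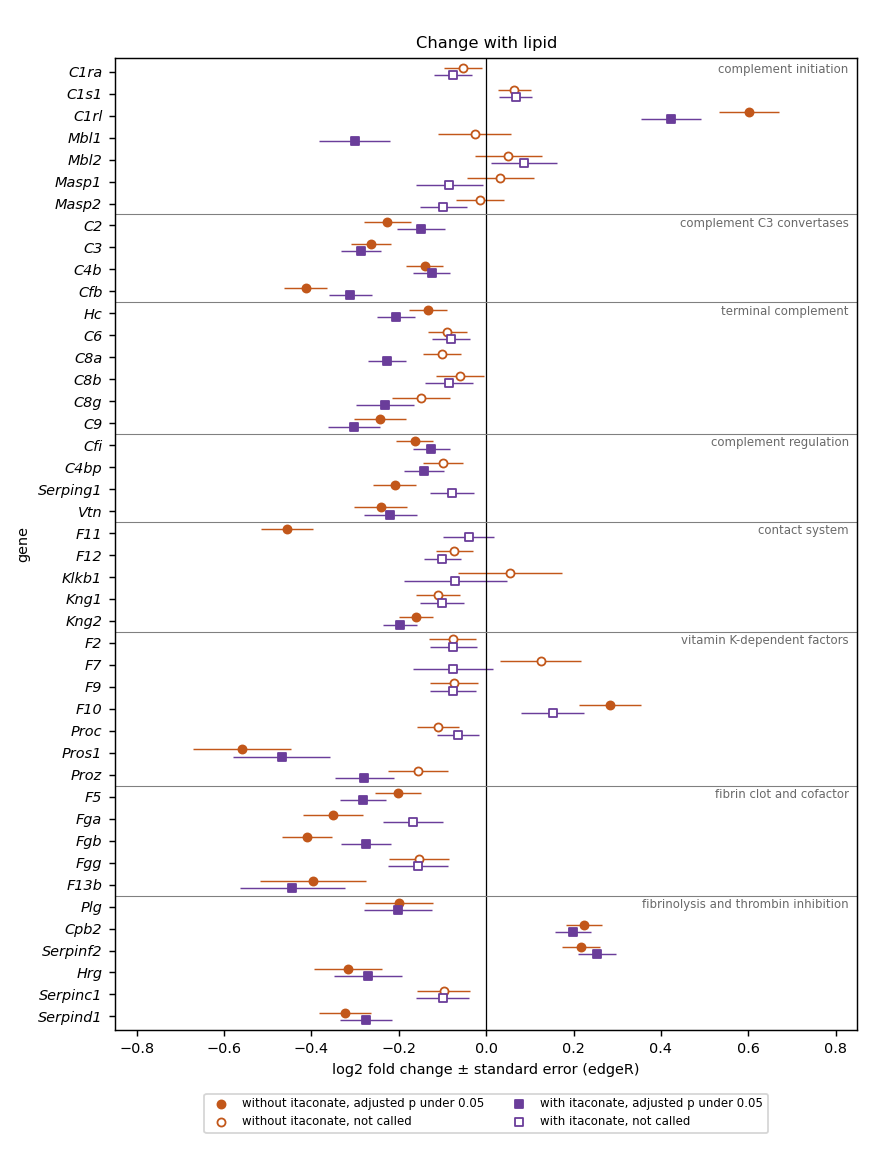
Log2 fold change with lipid of each of the 44 genes, with its standard error, in the absence of itaconate (circles) and in its presence (squares), filled where the adjusted p was under 0.05. Filled symbols lie to the left of 0 for the 4 C3 convertase genes in both comparisons and reach −0.56 for *Pros1*, and *C1rl* lies farthest to the right at 0.60.

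Coagulation by the contact system starts at a surface with factor XII, prekallikrein and kininogen and goes on to factor XI. Of these 5 genes, *F11* and *Kng2* fell with lipid alone and *F12*, *Klkb1* and *Kng1* did not pass the test. *F11*, the gene of factor XI, had 46.2, 42.0, 35.2 and 36.3 CPM in untreated libraries A to D and 33.5, 31.9, 25.1 and 26.1 CPM with lipid. Every lipid library was below every untreated one, and *F11* fell by 0.46 on the log2 scale (SE 0.059, adjusted p = 1.7e-05). With itaconate it had 41.6, 37.3, 26.4 and 30.5 CPM and with both 37.5, 33.4, 31.4 and 28.7 CPM. These groups overlapped, letter C was higher with both, and the log2 fold change was −0.04 (SE 0.058, adjusted p = 0.603). *Klkb1*, the neighbour of *F11* on chromosome 8, had 30.3 to 39.5 CPM in untreated and 34.0 to 36.8 CPM in lipid-treated cells. *Kng2*, 1 of the 2 kininogen genes of the mouse, fell by 0.16 (SE 0.039, adjusted p = 0.00333) and 0.20 (SE 0.039, adjusted p = 0.000766), but none of its values or of those of *Kng1* were whole, so that RSEM had shared their reads between genes.

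The vitamin K-dependent factors carry modified glutamates that hold them to cell membranes. With lipid alone *F10* rose, *Pros1* fell and *F2*, *F7*, *F9*, *Proc* and *Proz* did not pass the test. *Pros1*, which encodes protein S, the cofactor of activated protein C, had 35.4, 34.7, 33.2 and 36 CPM in untreated libraries A to D and 29.2, 24.9, 18.4 and 22.5 CPM with lipid. It had 37.1, 28.1, 27.5 and 34.5 CPM with itaconate and 21.5, 19.2, 25.8 and 25.0 CPM with both. In both comparisons the groups did not overlap. *Pros1* fell by 0.56 on the log2 scale (SE 0.11, adjusted p = 0.00077) and 0.47 (SE 0.11, adjusted p = 0.003), the largest fall among the 44 genes in each comparison.

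*F10*, which encodes factor X, had 173, 169, 172 and 162 CPM in untreated libraries A to D and 216, 218, 196 and 194 CPM with lipid. Every lipid library was above every untreated one (log2 fold change 0.28, SE 0.071, adjusted p = 0.00413). It had 194, 203, 179 and 171 CPM with itaconate and 248, 241, 166 and 182 CPM with both. Here letters A, B and D were higher with both and letter C was lower, and the log2 fold change was 0.15 (SE 0.071, adjusted p = 0.091). Without lipid + itaconate replicate C it passed the test (adjusted p = 0.00263). With all libraries kept it passed in edgeR with no filter on low genes (adjusted p = 0.0178), and in no other alternative. *F7* and *Proz*, the genes on either side of *F10* on chromosome 8, encode factor VII and protein Z. *F7* had 19.0 ± 0.778 CPM in untreated and 20.7 ± 1.34 CPM in lipid-treated cells, while *Proz* fell in the second comparison (log2 fold change −0.28, SE 0.068, adjusted p = 0.00337).

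*F2*, the gene of prothrombin, had 1002, 865, 894 and 844 CPM in untreated libraries A to D and 910.5, 863, 826 and 816 CPM with lipid. It had 988, 957, 881 and 859.8 CPM with itaconate and 1005, 946, 745 and 815 CPM with both. The groups overlapped in each comparison. Its log2 fold change was −0.08 in both (SE 0.054 in each), with adjusted p of 0.253 and 0.267.

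The 3 fibrinogen chains, the transglutaminase subunit gene *F13b* and *F5*, the gene of the cofactor factor V, form the clot group. With lipid alone 4 of these 5 genes fell, and with lipid in the presence of itaconate 3 fell. *Fgb* had 4825, 4134, 3899 and 4306 CPM in untreated libraries A to D and 3632, 3557, 2798 and 2981 CPM with lipid. With itaconate it had 4731, 4464, 3764 and 4351 CPM, and with both 4100.4, 4036, 2958 and 3282 CPM. The first pair of groups did not overlap, and in the second each letter was lower with lipid. *Fgb* fell by 0.41 on the log2 scale (SE 0.058, adjusted p = 3.87e-05) and 0.28 (SE 0.058, adjusted p = 0.00125).

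*Fga* had 2789.9, 2511, 2313 and 2513 CPM in untreated libraries A to D and 2361, 2332, 1595 and 1739 CPM with lipid. Letters C and D were far below A and B with lipid, the groups overlapped slightly, and *Fga* fell by 0.35 (log2 scale, SE 0.068, adjusted p = 0.000626). With itaconate *Fga* had 2704, 2488, 2184 and 2521 CPM, and with both 2396, 2489.9, 1857 and 2103 CPM. Here letter B was not lower, and the log2 fold change of −0.17 (SE 0.068) had an adjusted p of 0.0537. It passed the test without lipid + itaconate replicate B (adjusted p = 0.0320) and without itaconate replicate B (0.0304). With all libraries kept it passed in DESeq2 (adjusted p = 0.0164) and in edgeR with no filter on low genes (0.00579). It also passed with RLE normalization (0.0396) and with TMM factors computed without the genes followed here (0.0459), and in no other alternative.

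*Fgg*, the third chain, had 2036, 1768, 1700.5 and 1719 CPM in untreated libraries A to D and 1751, 1815, 1466 and 1482 CPM with lipid. It had 2065, 2094, 1710.0 and 1880.3 CPM with itaconate and 1985, 2105, 1343 and 1593 CPM with both. Letter B was slightly higher with lipid in each comparison and the other letters were lower. The log2 fold changes were −0.15 (SE 0.069, adjusted p = 0.0755) and −0.16 (SE 0.069, adjusted p = 0.0752). The first passed the test without untreated replicate B (adjusted p = 0.0123) and the second without lipid + itaconate replicate B (adjusted p = 0.0109). DESeq2 called both (adjusted p = 0.0358 and 0.0288), as did edgeR with no filter on low genes (0.0224 and 0.0144). With the 8 libraries of the comparison alone the first passed (0.0339) and the second did not. No other alternative called either. The 3 chain genes lie side by side on chromosome 3, with *Fgg* at chr3:83007724-83015049, *Fga* at chr3:83026076-83033627 and *Fgb*, on the other strand, at chr3:83040141-83049863. Together they took 0.847 ± 0.0565% of all counts in untreated and 0.714 ± 0.10% in lipid-treated cells, and 0.846 ± 0.0680% with itaconate and 0.757 ± 0.0922% with both.

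*F13b*, which encodes the carrier subunit of the enzyme that cross-links fibrin, had 51.4, 40.9, 46.9 and 47.7 CPM in untreated libraries A to D and 31.6, 32.5, 36.8 and 40.3 CPM with lipid. It had 52.9, 47.3, 47.0 and 46.7 CPM with itaconate and 43.2, 42.1, 26 and 31.9 CPM with both. The groups did not overlap in either comparison. *F13b* fell by 0.40 (log2 scale, SE 0.12, adjusted p = 0.0138) and 0.44 (SE 0.12, adjusted p = 0.00687). The first call was lost without lipid replicate A (adjusted p = 0.0629) or untreated replicate C (0.0557). *F5* went from 121 ± 14.0 to 105 ± 7.98 CPM with lipid alone (log2 fold change −0.20, SE 0.052, adjusted p = 0.00483) and fell by 0.28 in the second comparison (SE 0.052, adjusted p = 0.000437).

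**Figure D4:**
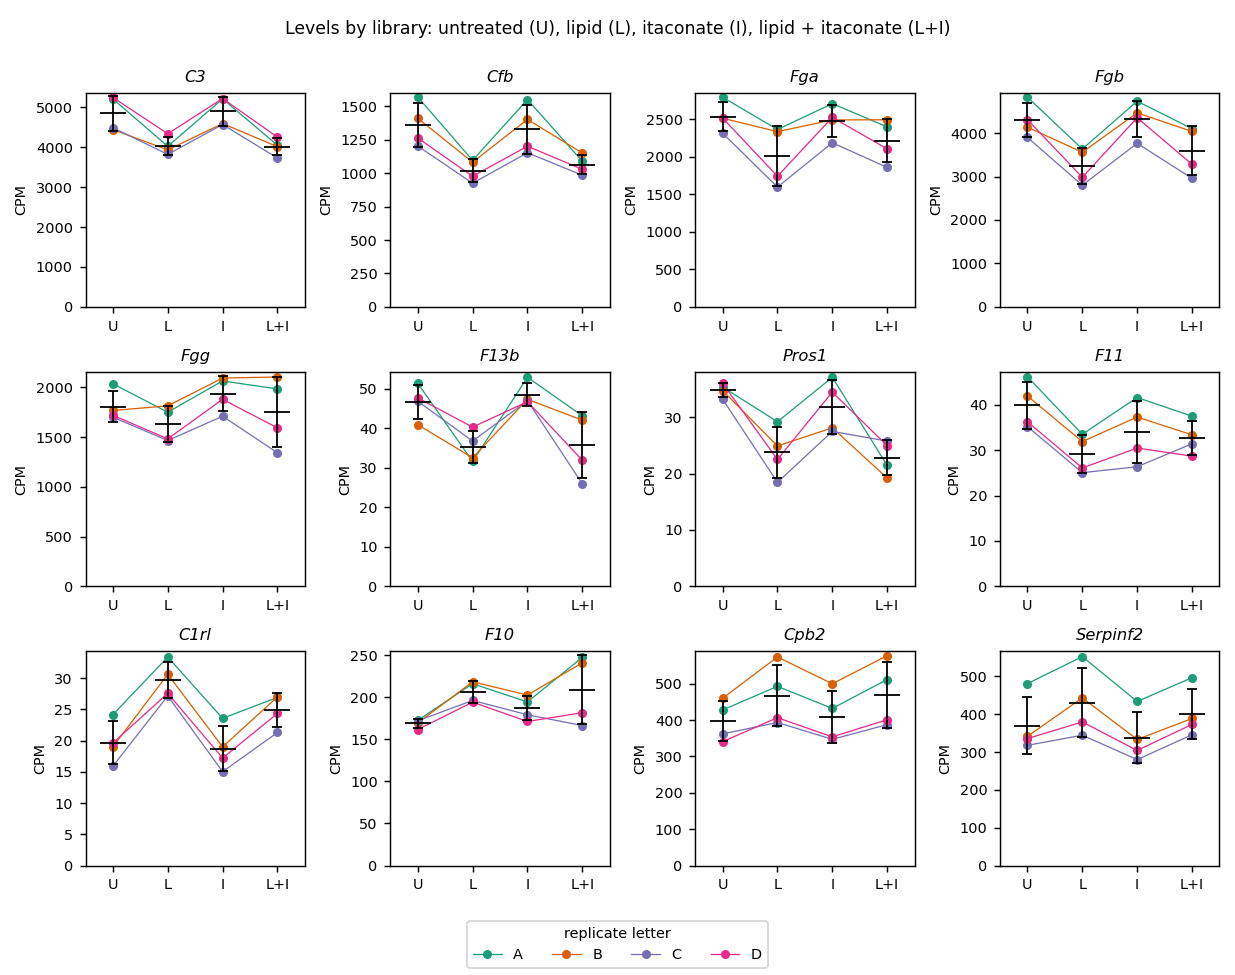
CPM of 12 genes in each library of the untreated (U), lipid (L), itaconate (I) and lipid + itaconate (L+I) groups, with coloured points and lines for replicate letters A to D and black marks for the mean ± SD (n = 4). *C3* is near 4026 CPM with lipid and 4843 without, *Fgb* near 3242 and 4291, and in most panels the lines of the 4 letters run side by side.

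Of the 6 genes of fibrinolysis and of thrombin inhibition, 2 rose and 3 fell in both comparisons. Those that rose encode inhibitors of fibrinolysis. *Cpb2*, the gene of the carboxypeptidase that protects fibrin from plasmin, had 428, 459.8, 362 and 341 CPM in untreated libraries A to D and 493, 573, 393 and 406 CPM with lipid. It had 432, 499.6, 347 and 354 CPM with itaconate and 511, 577, 387 and 401 CPM with both. The groups overlapped because the letters differed, A and B being high, but every letter was higher with lipid. *Cpb2* rose by 0.22 (log2 scale, SE 0.041, adjusted p = 0.000391) and 0.20 (SE 0.041, adjusted p = 0.00114).

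*Serpinf2*, which encodes alpha 2-antiplasmin, the inhibitor of plasmin, had 481, 342, 318 and 336 CPM in untreated libraries A to D and 552, 443, 345 and 379.6 CPM with lipid. It had 434, 333, 280.0 and 304 CPM with itaconate and 497, 389, 346 and 373 CPM with both. Letter A was highest in every group, and in each letter the level was higher with lipid. *Serpinf2* rose by 0.22 (log2 scale, SE 0.044, adjusted p = 0.000787) and 0.25 (SE 0.044, adjusted p = 0.000251).

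*Plg*, the gene of plasminogen, had 818, 692, 706 and 725 CPM in untreated libraries A to D and 694, 617, 623 and 623 CPM with lipid. It had 802, 716, 718 and 692 CPM with itaconate and 779, 721, 492 and 574 CPM with both. The groups overlapped, and letter B was slightly higher with both than with itaconate. *Plg* fell by 0.20 in each comparison (log2 scale, SE 0.078, adjusted p = 0.0442 and 0.043), and over the alternatives the adjusted p went up to 0.165 and 0.194. The first call was lost without any 1 of lipid replicates A, B and D and untreated replicates A, C and D, and the second without any 1 of itaconate replicates C and D and lipid + itaconate replicates C and D. The first was also lost with the filterByExpr filter of edgeR (adjusted p = 0.0504). The second was also lost with the 8 libraries of the comparison alone (0.0816). *Hrg* (histidine-rich glycoprotein, which binds plasminogen and heparin) fell by 0.32 (SE 0.078, adjusted p = 0.00371) and 0.27 (SE 0.078, adjusted p = 0.00983). *Serpind1* (heparin cofactor II, an inhibitor of thrombin) went from 63.1 ± 15.0 to 50.9 ± 14.4 CPM and fell by 0.32 (SE 0.059, adjusted p = 0.000391), whereas *Serpinc1* (antithrombin) was at 789.5 ± 75.2 and 738 ± 56.3 CPM and was called in neither comparison.

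The calls of *Cpb2*, *Serpinf2*, *Serpind1*, *Kng2*, *Cfi* and *Plg* in both comparisons were lost in a model without the replicate letter, as were those of *F5* in the first and *C2*, *C4b*, *C4bp*, *C8g* and *Fgb* in the second, and 16 and 13 of the 44 genes (36.4% and 29.5%) were then called in the first and second comparison, beside 35.5% and 34.2% of all genes in that model. Much of the spread of these genes lay between letters. Over the 16 libraries, letter A was the highest of the 4 letter means for 31 of the 44 genes and letter C the lowest for 26. The range of the letter means was larger than that of the treatment means for 22 genes, with medians of 0.26 and 0.23 on the log2 scale, and it was largest for *Serpind1* (0.74) and *Serpinf2* (0.61).

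The next comparisons ask what itaconate did. Against untreated cells, 1 of the 44 genes was called, *F11*, which was lower (2.27%, beside 4.91% of all genes tested). *F11* fell by 0.24 on the log2 scale (SE 0.058, adjusted p = 0.0259) and was lower with itaconate in 4 of 4 letters, although the groups overlapped. With 1 library left out the call was kept without itaconate replicate A and lost without any 1 of the other 7 libraries, with adjusted p from 0.0504 (without itaconate replicate B) to 0.119 (without itaconate replicate C). DESeq2 called 1 gene as well, beside 6.71% of all genes. In edgeR 5 of the 44 had an unadjusted p under 0.05, beside 2483 of the 11675 genes tested. In 10 of the 44 genes the itaconate library was lower in each letter, beside 19.0% of all genes, and in 8 it was higher, beside 18.3%. The median log2 fold change was 0.02, beside −0.0019 over all genes. *Mbl1* was higher with itaconate in each letter (log2 fold change 0.22, SE 0.082, adjusted p = 0.13). In a model with no other libraries than the 8 compared, 7 of the 44 genes were called, *F11*, *Mbl1*, *C2*, *C9*, *F10*, *Mbl2* and *Serpinf2*, which is 15.9%, beside 16.0% of all genes in that model.

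Added to lipid, itaconate changed none of the 44 genes past the threshold in edgeR, beside 2.58% of all genes, and none was called without lipid + itaconate replicate B, beside 1.15%. At an unadjusted p under 0.05 in edgeR there were 5 of the 44 genes, beside 2025 of the 11675 genes tested. Without that library there were 5 as well. The number over all genes is not given for that fit, so that no result is read from this count. DESeq2 called 1, *C1rl*, beside 4.47% of all genes. For *C1rl* every lipid + itaconate library was below every lipid library (log2 fold change −0.26, SE 0.068, adjusted p = 0.0567, and 0.025 in DESeq2). *F11*, *Fga* and *Fgb* were each higher with both than with lipid in 4 of 4 letters, by 0.17 (SE 0.059, adjusted p = 0.134), 0.15 (SE 0.068, adjusted p = 0.276) and 0.15 (SE 0.058, adjusted p = 0.203) on the log2 scale.

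**Figure D5:**
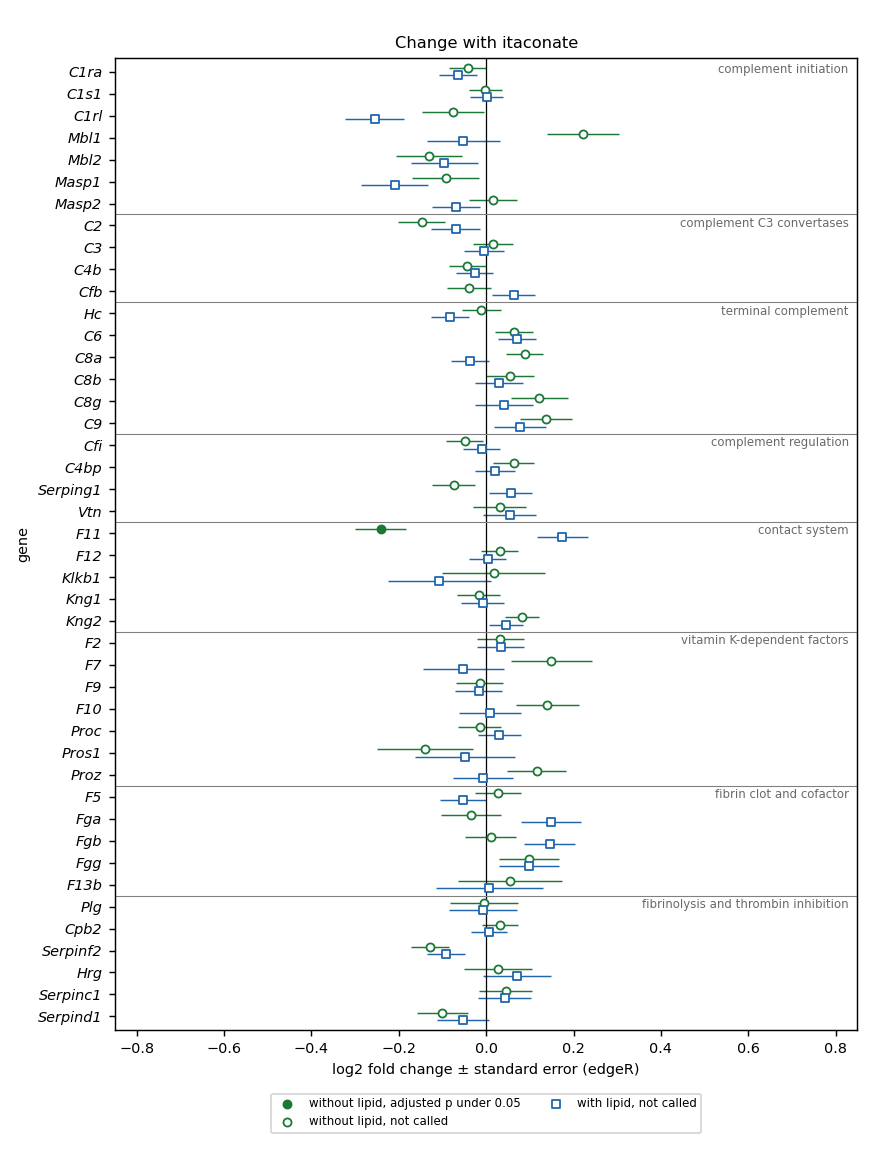
Log2 fold change with itaconate of each of the 44 genes, with its standard error, in the absence of lipid (circles) and in its presence (squares), on the same axis range as the plot of changes with lipid. *F11* in the absence of lipid, at −0.24, is the filled symbol, and the other changes lie between −0.26 and 0.22.

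The interaction of lipid and itaconate, which tests whether lipid acted differently in the presence of itaconate, called none of the 44 genes in edgeR, beside 0.00857% of all genes. Of the 44 genes *F11* and *Mbl1* had an unadjusted p under 0.05, beside 1004 of the 11675 genes tested. Without lipid + itaconate replicate B none was called either, beside 0.0599% of all genes. In that fit 7 of the 44 had an unadjusted p under 0.05. The number over all genes is not given for that fit, so that the 7 cannot be set beside it and no result is read from it. For *F11* the interaction was 0.42 on the log2 scale (SE 0.083, adjusted p = 0.158), that is, a fall with lipid of 0.46 without itaconate and a change of −0.04 with it. DESeq2 called *F11* (adjusted p = 0.0162), beside 0.412% of all genes, and so did edgeR with no filter on low genes (adjusted p = 0.00555). The interactions of *Mbl1* and *C8a* were −0.27 (SE 0.12, adjusted p = 0.536) and −0.13 (SE 0.061, adjusted p = 0.591).

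Beyond the 44 genes, 53 other genes of the complement and coagulation pathways (receptors, membrane regulators, platelet and vessel wall factors, further inhibitors) were looked up, and 31 of them were tested. With lipid alone 3 were higher and 14 were lower, and with lipid in the presence of itaconate 4 were higher and 14 were lower, with a median log2 fold change of −0.21 and −0.22. Of all genes tested, 23.8% were higher and 23.7% lower in the first comparison, and 23.5% higher and 23.5% lower in the second. Without lipid + itaconate replicate B the second counts were 5 higher and 16 lower, beside 45.3% of all genes called in that fit. In both comparisons the lower genes included *C1qa*, *C1qb* and *C1qc*, which are also in the macrophage list and were counted there. The highest of their group means was 4.99 CPM, that of *C1qc* in untreated cells. *F2r*, which encodes the thrombin receptor PAR1, went from 14.3 to 27.6 CPM with lipid alone (log2 fold change 0.94, SE 0.087, adjusted p = 5.9e-07), and *Thbs1* (thrombospondin 1) fell by 1.37 (SE 0.17, adjusted p = 9.99e-06). *Tfpi2*, a protease inhibitor related to the tissue factor pathway inhibitor, fell by 0.66 (SE 0.082, adjusted p = 1.07e-05), and *Anxa2*, which encodes a cell surface receptor for plasminogen, fell by 0.46 (SE 0.057, adjusted p = 1.15e-05). With itaconate alone 2 were lower, *Plaur* (the urokinase receptor, −0.51, SE 0.086, adjusted p = 0.00389) and *Anxa2* (−0.27, SE 0.057, adjusted p = 0.0128). Of all genes tested, 4.91% were called there. Between lipid + itaconate and lipid, *Tfpi2* was higher (0.33, SE 0.082, adjusted p = 0.047) and *C1qb*, a chain of C1q that is also a macrophage marker, was lower (−0.65, SE 0.14, adjusted p = 0.0279), at 3.24 CPM with lipid and 2.06 CPM with both. That comparison called 2.58% of all genes tested. Without lipid + itaconate replicate B it called 1.15%, and *C1qb* was called and *Tfpi2* was not.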

How the data were processed

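The authors sequenced stranded mRNA libraries from 16 hepatocyte samples, trimmed reads with Cutadapt 1.18, aligned them to mm10 with STAR 2.7.0f and quantified GENCODE genes with RSEM 1.3.1, and bcl2fastq 2.20 and Picard 2.18.26 were also used. The deposited values are expected counts per gene without normalization, of which 5.41% were not whole. The depth was 22346049 to 35512004 counts per library, and standard errors, which hold counting error and the spread between libraries together, were 0.038 to 0.12 (log2) for the 44 genes in the treatment comparisons.

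Here counts were rounded, normalized by TMM, filtered at a mean of 1 CPM (11675 of 55450 genes kept) and tested in R 4.3.3 with edgeR 4.0.16 (quasi-likelihood, treatment and replicate letter as terms, all 16 libraries in 1 model, Benjamini-Hochberg over all genes tested, threshold 0.05). The standard error is the log2 fold change divided by the square root of F. Levels per kb use the exon length of the gene in GENCODE mouse release 21, and positions refer to GRCm38, the assembly of mm10. The letters were kept because libraries of the same letter tended to deviate together. Deviations from the group mean correlated at 0.131 to 0.543 in the 24 same-letter pairs, with a median of 0.326. In the 72 other pairs the median was −0.140 and the highest 0.243, so that the sets overlapped. The deviations of a gene within a group sum to 0, so that the negative median of the other pairs is not separate evidence of pairing.

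Values in every library are given for the 3 largest rises and falls in each treatment comparison among genes called and moved in 1 direction in 4 letters, the 3 smallest p of the interaction, and *C3*, *F2*, *Plg*, *Fga*, *Fgb* and *Fgg*. The 44 genes, this rule and all gene lists were chosen with earlier results of these data known. Of the list of 8 hepatocyte markers, 7 were found under the listed symbol, and the promoter table has entries for 35 of the 44 genes. Alternatives were no replicate letter, RLE normalization, TMM factors without the 44 genes, other filters, DESeq2 1.42.0, the 8 libraries of a comparison alone and each library left out. The values of 1 of the 53 other pathway genes are not reported here, and its calls stand in the counts of that list.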

Additional observations from a re-analysis of the deposited data

Results flagged for a closer look

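In a group of 4 libraries, 1 value was taken as far from the others where its gap to the nearest, as a share of the group's range, exceeded Dixon's critical value for 4 samples, which chance gives in about 1 of 20 groups. Of the 176 groups of the 44 genes, 7 were so marked, each at its highest library, and 6 of the 7 were in letter A. Among untreated libraries these were *Mbl1* in replicate D (37.5 CPM, the others between 32.4 and 32.8), *Kng1* in replicate A (1032 CPM, others 869 to 895), *Serpinf2* in replicate A (481 CPM, others 318 to 342) and *Serpind1* in replicate A (85.3 CPM, others 53.7 to 58.9). Among itaconate libraries they were *C2* in replicate A (90.5 CPM, others 75.9 to 76.4) and *F13b* in replicate A (52.9 CPM, others 46.7 to 47.3), and with lipid *Plg* in replicate A (694 CPM, others 617 to 623).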

How the results depend on the processing

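None of the 48 log2 fold changes of the 44 genes that were called changed sign under any alternative, while 70 of the 172 that were not called did under at least 1, with 5 of the 70 in lipid against untreated cells and 2 in lipid + itaconate against itaconate. The count of called genes in lipid against untreated cells was 16 to 28 over all alternatives, against 23, with 16 in the model without the replicate letter and 20 to 28 with 1 library left out. For lipid + itaconate against itaconate it was 13 without the replicate letter, against 24, and 19 to 31 with 1 library left out, the highest without lipid + itaconate replicate B. For itaconate against untreated cells (1 gene) it was 0 without the replicate letter, 2 with no filter (*Mbl1* added), 7 in a model of the 8 libraries alone, and 0 to 1 with 1 library left out. For lipid + itaconate against lipid (0 genes) it was 2 with no filter (*C1rl* and *Masp1*), 1 in DESeq2 and 0 to 1 with 1 library left out, the 1 being *C1rl* without lipid + itaconate replicate C. For the interaction (0 genes) it was 1, *F11*, with no filter and in DESeq2. Single values were followed for a chosen set of genes and comparisons, not for all 44 genes in each comparison. Over this set and the alternatives, 892 values kept their side of the threshold, 64 lost it and 25 gained it. Genes outside the set gained calls too, such as *C1ra* in the second comparison (lowest adjusted p over the alternatives 0.0366). The 25 is therefore not the number of gains over the 44 genes. Of the 64, 36 came from leaving out 1 library and 19 from leaving out the letter, and the cause was not tested. The median standard error of the 44 genes was 0.055 on the log2 scale, which limits how small a change the depth and the spread between libraries allow to be called.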
